A study of Mus musculus with 2 samples.

Results

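The genes of β-adrenergic and cAMP signalling examined here were 10 of the 15048 genes with a counted read in long-read RNA sequencing of mouse heart. They were taken by symbol: the receptors Adrb1 and Adra1a, the stimulatory G protein gene Gnas, the adenylyl cyclases Adcy5 and Adcy6, the protein kinase A (PKA) genes Prkaca, Prkar1a and Prkar2a, and the phosphodiesterases Pde3a and Pde4d. The study had 1 group of 2 libraries, each made from 2 µg of total RNA of the heart; the mice were B6CASTF1/J females, 14 days old. B6CASTF1/J is an F1 hybrid, so both libraries mix transcripts of both parental genomes, which were not separated here. No treatment is given for the group. The labels call the libraries biological replicates 1 and 2, yet both carry the same donor, and their biosample fields name female mice differently. Nothing clearly says that they came from separate animals or pools, and p-values between them measure only the difference between these libraries.

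In cardiomyocytes, noradrenaline binds the β1 receptor, the stimulatory G protein activates adenylyl cyclase, and the cAMP formed releases the catalytic subunits of PKA from its regulatory subunits. PKA then phosphorylates proteins of calcium handling and contraction, and phosphodiesterases end the signal by breaking down cAMP. The α1A receptor shares the ligand but acts through another G protein, Gq.

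Gnas makes the α subunit of the stimulatory G protein in longer and shorter versions, which differ by exon 3 and by where exon 4 begins. These junctions are shown because they told apart nearly all Gnas transcripts counted here. Each stretch runs from the last 18 bases of exon 2 to the first 18 bases that every version of exon 4 holds, as in the GENCODE M21 transcripts, on the plus strand of mm10. Capitals mark exon 3 (45 bases, chr2:174336747-174336791) in Gnas-208 and the 3 more bases of exon 4 (chr2:174341650-174341652) in Gnas-207.
Gnas-208: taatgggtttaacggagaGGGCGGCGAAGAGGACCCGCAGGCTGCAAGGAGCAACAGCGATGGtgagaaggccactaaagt
Gnas-206: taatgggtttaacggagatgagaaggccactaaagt
Gnas-207: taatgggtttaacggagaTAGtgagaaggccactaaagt
The stretches are coding, and both alternative parts have a length divisible by 3, so they keep the reading frame. In the annotation the first base after exon 2 closes a codon in all 3 versions, so the capitals TAG in Gnas-207 are read across 2 codons and not as a stop.

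Prkar1a, for the type Iα regulatory subunit of PKA, is annotated with alternative noncoding first exons. Stretches upstream of the pair with the most reads are shown. They come from RefSeq windows on GRCm38.p6 (plus strand), cut where an annotated exon begins, and capitals mark TGACG or CGTCA, the cores of the cAMP response element (CRE).
Upstream of the first exon of Prkar1a-201, chr11:109650699-109650920: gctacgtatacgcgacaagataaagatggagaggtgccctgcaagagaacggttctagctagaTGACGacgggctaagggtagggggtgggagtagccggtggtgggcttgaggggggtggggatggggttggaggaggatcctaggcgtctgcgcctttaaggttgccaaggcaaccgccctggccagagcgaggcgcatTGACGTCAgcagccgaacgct
Upstream of the first exon of Prkar1a-202, chr11:109650292-109650440: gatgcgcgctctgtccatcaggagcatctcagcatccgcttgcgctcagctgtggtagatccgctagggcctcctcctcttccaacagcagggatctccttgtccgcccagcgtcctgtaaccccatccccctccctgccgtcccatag
The first stretch ends where the first exon of Prkar1a-201 begins, and the second ends at an exon of Prkar1a-203, leaving 134 bases before the first exon of Prkar1a-202 that are not shown. The first stretch holds the whole palindromic element TGACGTCA at chr11:109650900-109650907, with 13 bases between it and the first exon of Prkar1a-201. A RefSeq stretch that ends 42 bases before the first exon of Prkar1a-203, not shown, also holds CGTCA.

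Replicate 1 held 896941 reads and replicate 2 held 972159, of which 858071 and 926560 were neither spike-ins nor genomic fragments. Levels are given in CPM, a gene's reads scaled to those totals. Genomic fragments are reads on models of the genomic class, whose exons were not counted. A long read is counted once for a transcript whatever its length, so genes were compared without division by length, although long transcripts may be undercounted. A single read was worth 1.17 CPM in replicate 1 and 1.08 CPM in replicate 2, and the limit for a gene with 0 reads is 3 reads, that is 3.496 and 3.24 CPM. Each transcript model was annotated, a new combination of known splice sites, a model with a new splice site, or incomplete. Incomplete means part of an annotated intron chain, and the first 3 kinds are called complete. The 5' ends of complete models were not checked. Detected means 3 reads or more in each of the libraries. All 7 cardiomyocyte markers were detected, and their summed level was 40695 and 40834 CPM. Markers of fibroblasts (5 of 5), endothelium (5 of 5), smooth muscle and pericytes (6 of 6), macrophages (5 of 5) and fat (5 of 5) were also detected. Of 6 markers of sympathetic neurons and glia 2 were detected, and Th, the first enzyme of catecholamine synthesis, had 0 reads in both libraries. In this bulk tissue, fewer cells of a type and less RNA per cell cannot be told apart.

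The 10 genes summed to 3517 ± 16.0 CPM (SD, n = 2 libraries here and below), and Gnas, Prkaca and Prkar1a together took 93.2% ± 0.174 of their reads. Levels fell into 3 ranges: about 1000 CPM for those 3 genes, 65 to 99 CPM for Prkar2a and Adcy5, and under 30 CPM for the receptors, Adcy6 and both phosphodiesterases. Among the 10 genes, counted reads of receptors, cyclases and phosphodiesterases were thus far fewer than those of Gnas, Prkaca and Prkar1a. The kinase gene Prkar2a, at 99 CPM, lay nearer to Adcy5. Going down the order Gnas, Prkaca, Prkar1a, Prkar2a, Adcy5, Pde3a, Adrb1, Adcy6, Adra1a, Pde4d, the ranges over the libraries overlapped between Prkaca and Prkar1a, between Pde3a and Adrb1, and between Adra1a and Pde4d. The other neighbours did not overlap, which 2 libraries cannot test. With genomic fragments counted, Adcy6 (26.7 CPM) overlapped and passed Adrb1 (24.5), and Pde4d (8.73) passed Adra1a (7.60).

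**Figure D1:**
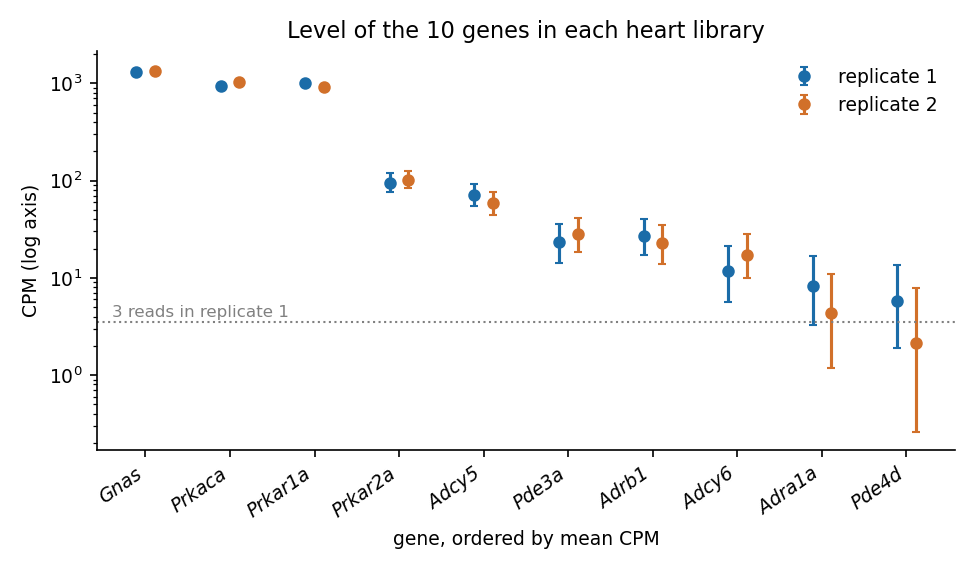
Level of each of the 10 genes in CPM (log axis) in replicate 1 and replicate 2, with exact 95% Poisson intervals of the reads. Gnas, Prkaca and Prkar1a lie near 1000 CPM in both libraries, and Adra1a and Pde4d lie near the line that marks 3 reads.

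Adrb1 (ENSMUSG00000035283.5, chr19:56722199-56733113), the main β-adrenergic receptor of cardiomyocytes, had 23 reads in replicate 1 and 21 in replicate 2, or 24.7 ± 2.93 CPM. All were on Adrb1-201, which has a single exon, so splicing cannot tell its transcripts from DNA. Adra1a (ENSMUSG00000045875.13, chr14:66635251-66771168), the α1A receptor, had 7 and 4 reads, or 6.24 ± 2.72 CPM. Its reads were scattered over annotated forms (1 and 1), new combinations of known splice sites (1 and 3), new splice sites (3 and 0) and incomplete models (2 and 0), and 4 of 5 and 4 of 4 reads on spliced, complete models used the annotated first exon whose intron begins at chr14:66635604. Of the reads of these 2 receptors, Adrb1 held 76.7% in replicate 1 (57.7 to 90.1, Clopper-Pearson at 95%) and 84.0% in replicate 2 (63.9 to 95.5).

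Gnas (ENSMUSG00000027523.19, chr2:174284320-174346744) was the highest of the 10, with 1131 and 1235 reads, 1325 ± 10.5 CPM, rank 85 of all genes. The gene is imprinted in part and has several promoters, each with its own first exon. The first exon of the Gs α subunit (intron from chr2:174330435) began 1078 of 1096 transcripts in replicate 1 and 1187 of 1211 in replicate 2, or 98.2% ± 0.240. Exon 1A, a noncoding first exon upstream of it (intron from chr2:174327942), began 14 and 18, or 1.38% ± 0.148. The first exon of the extra-large form XLαs (intron from chr2:174300218) had 1 and 3 reads, and that of Nesp, which codes for a neuroendocrine secretory protein (intron from chr2:174284509), 1 and 1.

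Among Gnas forms that are annotated or had at least 5 reads in each library, Gnas-208, with exon 3, held 566 of 1079 and 668 of 1190 reads, or 54.3% ± 2.60. Gnas-207, without exon 3 and with the 3 more bases of exon 4, held 334 and 335, or 29.6% ± 1.98. Gnas-206, with neither, held 169 and 173, or 15.1% ± 0.795. Over every complete transcript crossing from exon 2 to exon 4, exon 3 was in 578 of 1090 and 685 of 1204 reads, or 55.0% ± 2.73. Counted only where both splice sites flanking exon 3 in Gnas-208 are present, which leaves out reads on the other start of exon 4, its inclusion was 78.1% ± 1.71 (578 of 752 and 685 of 864).

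The 3 more bases of exon 4 were seen only in reads without exon 3. Of reads without exon 3, the 3 more bases were in 339 of 512 in replicate 1 and 340 of 519 in replicate 2, or 65.9% ± 0.495. Of reads with exon 3 they were in 0 of 578 and 0 of 685, with upper 95% limits of 0.636% and 0.537%. The same holds in the annotation, where 12 Gnas transcripts have exon 3 with the short exon 4, 2 lack exon 3 and have the 3 more bases, 1 has neither, and no other combination is annotated. A transcript with both, if its read was placed at that junction, would fall in the class of new combinations, which was counted. The starts of exon 4 lie only 3 bases apart and the aligner is not given. How reads were placed between these starts was not tested.

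**Figure D2:**
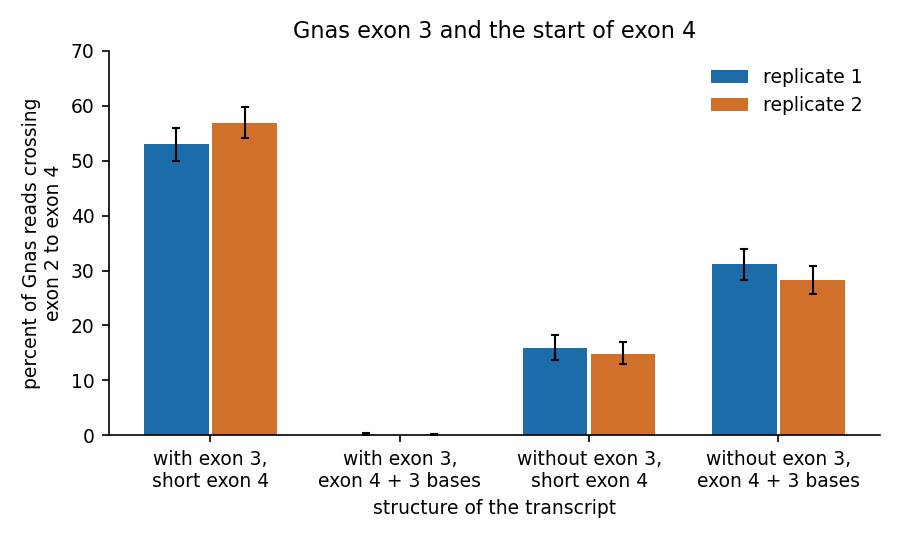
Percent of complete Gnas reads crossing from exon 2 to exon 4 with each combination of exon 3 and exon 4 start, by library, with 95% Clopper-Pearson intervals. Reads with exon 3 and the short exon 4 are most frequent in both libraries, and none has exon 3 together with the 3 more bases.

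The cyclases Adcy5 and Adcy6, which make cAMP and are both inhibited by calcium, were far below Gnas. Adcy5 (ENSMUSG00000022840.9, chr16:35154877-35305738) had 61 and 54 reads, 64.7 ± 9.06 CPM. Adcy6 (ENSMUSG00000022994.9, chr15:98589973-98610076) had 10 and 16, 14.5 ± 3.97 CPM. Adcy5 was higher in both libraries and made up 85.9% (75.6 to 93.0) and 77.1% (65.6 to 86.3) of the pair. Most complete Adcy5 transcripts, 36 of 39 and 34 of 36, used the first exon of Adcy5-201 (intron from chr16:35157236). Complete Adcy6 transcripts were few: 4 of 6 and 4 of 9 had a first intron from chr15:98609204 on the minus strand, which is not that of any annotated first exon, and 0 and 5 had that of Adcy6-205 (from chr15:98603873). A further 16 and 7 reads of Adcy6 were genomic fragments, all overlapping the last exon of an annotated transcript of the gene. With them the Adcy6 level was 26.7 CPM, and replicate 2 stood below replicate 1 instead of above.

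PKA is a tetramer of catalytic and regulatory subunits. Prkaca (ENSMUSG00000005469.10, chr8:83972993-83996443), for the catalytic subunit Cα, had 810 and 959 reads, 989 ± 64.4 CPM. It made up 94.96% and 94.95% of the reads of Prkaca and Prkacb, the gene of the subunit Cβ, which had 43 and 51 reads. Prkar1a (ENSMUSG00000020612.16, chr11:109649405-109669656) had 859 and 857 reads, 963 ± 53.9 CPM. Prkar2a (ENSMUSG00000032601.13, chr9:108689314-108750436), for the type IIα regulatory subunit, had 82 and 95 reads, 99.05 ± 4.93 CPM. Of the reads of all 4 regulatory genes, Prkar1a had 88.9% ± 1.12 and Prkar2a 9.16% ± 0.851, with Prkar2b at 13 and 20 reads and Prkar1b at 4 and 1. The regulatory genes together had 52.9% (50.6 to 55.2) of PKA subunit reads in replicate 1 and 49.1% (46.8 to 51.3) in replicate 2, and the catalytic genes had the rest.

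All annotated Prkaca reads, 768 and 904, were on Prkaca-201, and 774 of 780 and 910 of 926 complete transcripts used its first exon (intron from chr8:83973233). The other annotated first exon, that of Prkaca-202 (chr8:83976883-83977094), had 0 reads. A first intron from chr8:83980672, which is not that of any annotated first exon, had 3 reads in replicate 1, or 0.385% (0.0794 to 1.12). It had 14 in replicate 2, or 1.51% (0.829 to 2.52). Whether transcripts start at the exon before it was not tested. For Prkar2a, 78 of 79 and 91 of 91 used the first exon of Prkar2a-201 (intron from chr9:108692713).

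The first exons of Prkar1a depended on which reads were counted. Among complete models, 701 of 712 and 662 of 674 reads, 98.3% ± 0.167, used the first exon of Prkar1a-201, the one 13 bases from the CRE shown above. The first exon of Prkar1a-202 (chr11:109650575-109650624) had 5 and 4 reads, and that of Prkar1a-203, the farthest upstream (chr11:109649405-109649527), had 3 and 4. A single incomplete model held a further 130 and 159 reads. It began with the splice site of Prkar1a-202's first exon and then followed the intron chain of Prkar1a-203, in which that splice site ends an internal exon. With such models added, the first exon of Prkar1a-201 had 701 of 844 and 662 of 835 reads, 81.2% ± 2.67, and that of Prkar1a-202 had 135 and 163, 17.8% ± 2.49. Reads that start at this exon and reads broken off within the internal exon of Prkar1a-203 cannot be told apart by their introns. The upstream exon of Prkar1a-203 itself was in only those 3 and 4 reads.

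**Figure D3:**
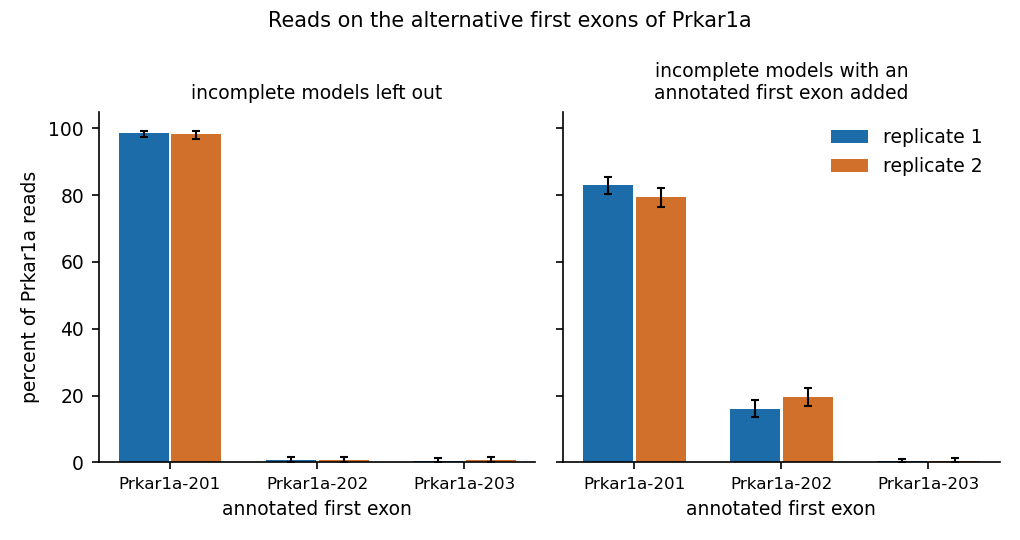
Percent of Prkar1a reads by the splice site that ends each annotated first exon, by library, with 95% Clopper-Pearson intervals. Incomplete models with such a first splice site are left out (left) or added (right). The splice site of Prkar1a-202's first exon has under 1% on the left and 16.0% and 19.5% on the right. It also ends an internal exon of Prkar1a-203.

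RefSeq promoter windows, of 250 bases before and 50 after a start, were at hand for 7 of the 10 genes, 16 windows in all. The whole element TGACGTCA, the same on both strands, was in 1.79% of all 32851 mouse windows and in 2 of the 16, both of Prkar1a and both holding the same site. The core TGACG or its complement CGTCA, which the whole element contains, was in 20.8% of all windows and in 9 of the 16, from 5 of the 7 genes. The 2 Prkar1a windows with the whole element are among the 9 and overlap. No share per gene was computed over all genes, and windows were not matched for GC content. TATAAA or its complement was in 13.6% of all windows and in 3 of the 16, all of Gnas. The 3 lie at the first exon of Nesp and at the noncoding first exon upstream of that of the Gs α subunit. The first exon of the Gs α subunit began 98.2% of Gnas transcripts, and its window (chr2:174329756-174330055) held neither TATAAA nor its complement. Of the 3 Gnas windows with TATAAA or its complement, 2 overlap each other almost entirely, and both are also among the 9 with the core. These are matches of letters and say nothing of binding.

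Pde3a (ENSMUSG00000041741.10, chr6:141249269-141507448), a phosphodiesterase that cGMP inhibits, had 20 and 26 reads, 25.7 ± 3.36 CPM, and 83.3% and 83.9% of the reads of Pde3a and Pde3b. All its annotated reads, 9 and 18, were on Pde3a-201. Pde4d (ENSMUSG00000021699.17, chr13:108449948-109953461), a cAMP-specific phosphodiesterase with many promoters, had 5 and 2 reads, 3.99 ± 2.59 CPM, and so was not detected by the rule of 3 reads in each library. With its genomic fragments it had 9 and 7 reads, or 8.73 CPM. Its annotated reads were on Pde4d-207 (2 and 1) and Pde4d-206 (2 and 0), whose first exons are at chr13:109903106-109903689 and chr13:109903102-109903490. At this depth no statement can be made about the other first exons of Pde4d. On the opposite strand within Pde4d lay 36 and 34 reads of other models, more than on the gene itself.

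How completely the transcripts were read differed among the genes. Incomplete models held 36.1% and 33.3% of the counted reads of Adcy5, 45.0% and 23.1% of Pde3a and 40% and 43.8% of Adcy6. They held only 3.09% and 1.94% of Gnas, 3.70% and 3.44% of Prkaca and 3.66% and 4.21% of Prkar2a, against 8.92% and 8.88% over all genes. For Prkar1a the share was 17.1% and 21.4%, most of it the model described above. Pde3a-201 is annotated with 12302 bases and Adcy5-201 with 7008, against 2276 for Prkaca-201 and 4965 for Prkar2a-201. Adcy6-205, the only annotated Adcy6 form read (0 and 5 reads), has 3707 bases, Adcy6-201 has 6038 and Prkar1a-201 has 3359. The part of transcript length in these shares and in the levels was not tested.

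**Figure D4:**
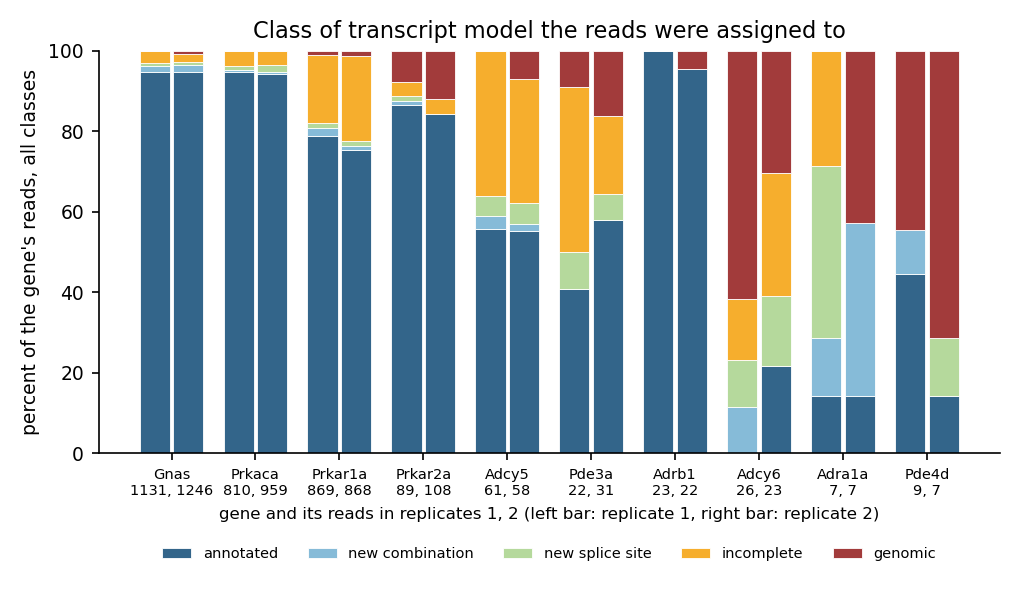
Percent of each gene's reads, genomic fragments included, in each class of transcript model, for replicate 1 (left bar) and replicate 2 (right bar), with the reads under each gene. Annotated models hold most reads of Gnas, Prkaca, Prkar1a, Prkar2a and Adrb1, and incomplete or genomic ones hold a large part for Adcy5, Pde3a and Adcy6.

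No gene of the set was called as differing between the libraries. Over all genes with at least 10 reads, the two-sided exact binomial test with Benjamini-Hochberg adjustment called 162 of 9433, or 1.72%, with 74 higher and 88 lower in replicate 2. Of the 10 genes 9 could be tested and 0 were called, also 0 at an unadjusted p under 0.05 (888 of all genes were). On annotated models alone Prkar1a had an unadjusted exact p of 0.0161 (log2 ratio -0.19, adjusted exact p = 0.354). Prkaca came nearest, with a log2 ratio of replicate 2 over replicate 1 of 0.13 (interval -0.0036 to 0.27, adjusted exact p = 0.539), followed by Prkar1a at -0.11 (-0.25 to 0.02, adjusted exact p = 0.664). The interval for Gnas was -0.10 to 0.13, while that for Adra1a, at -0.92, reached from -3.14 to 1.06, so that only large differences could have been seen there. The share of the leading form was compared by Fisher's exact test in 4331 genes, of which 1 (0.0231%) was called. Of the 6 genes of the set entered there 0 were called, but Adcy5, Adrb1, Prkaca and Prkar2a had a single form that met the minimum, so that only Gnas and Prkar1a could have differed. For Gnas-208 the adjusted Fisher's exact p was 1 (unadjusted 0.0836). The leading first exon was compared in 3156 genes, of which 6 (0.190%) were called. Of the 5 tested here, Adcy5, Gnas, Prkaca, Prkar1a and Prkar2a, 0 were called, and each adjusted Fisher's exact p was 1. For Prkar1a with incomplete models added, the unadjusted Fisher's exact p was 0.0529, and for Prkaca with first donors within 10 bases joined it was 0.0480 (adjusted 1).

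The 10 genes were set beside 11 pathway lists of 142 other symbols, of which 141 are in the annotation, 94 were detected and 88 could be tested. The same binomial test called 2 higher and 2 lower in replicate 2. The median log2 ratio was -0.0048 over those 88 and 0.0047 over all genes tested.

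Among 19 other receptors 6 were detected. Among the highest were Chrm2, the M2 muscarinic receptor that opposes the β signal through Gi, with 50.3 ± 26.6 CPM, and Pth1r, the parathyroid hormone receptor, with 24.0 ± 2.66. Chrm2 had 27 reads in replicate 1 and 64 in replicate 2 (adjusted exact p = 0.0312), but 48 and 64 once genomic fragments were counted (adjusted exact p = 0.874) and 15 and 17 on annotated models (adjusted exact p = 1). Of 22 other G protein genes and regulators 18 were detected and 0 called. Rgs5, a regulator of G protein signalling that also marks pericytes, led with 478 ± 66.3 CPM, followed by Gnai2, for an inhibitory α subunit, with 231 ± 31.1 and Gnb2, for a β subunit, with 191 ± 20.6. Of the 8 other adenylyl cyclases 4 were detected and 0 called. Adcy4 was highest of these with 27.5 ± 0.699 CPM, above Adcy6 in both libraries and below Adcy5 (with genomic fragments Adcy6 had 26 and 23 reads and Adcy4 24 and 25, so that Adcy6 led in replicate 1), before Adcy9 with 8.44 ± 1.25 and Adcy3 with 8.35 ± 1.92.

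Of the 6 other PKA subunits and inhibitors 4 were detected and 0 called. Pkig, an inhibitor peptide of the catalytic subunit, had 347 ± 6.51 CPM, Pkia, another, 55.6 ± 3.81, and Prkacb 52.6 ± 3.49. Of 17 other genes in the phosphodiesterase list 12 were detected and 0 called. The list was led by Pde4dip, a scaffold that binds PDE4D and is no enzyme, with 368 ± 43.7 CPM. Pde2a, which cGMP stimulates, had 140 ± 14.6 and Pde4b 48.2 ± 20.8, so both enzymes stood above Pde3a and Pde4d in both libraries. So did Pde1c, with 34.7 ± 2.87. Of 17 genes in the list of A-kinase anchors, which hold PKA at its targets, 12 were detected and 2 were lower in replicate 2. Akap1, a mitochondrial anchor, had 149 ± 12.9 CPM, Akap8l, a relative of Akap8, 68.7 ± 33.0 and Ezr, ezrin, which links membrane and cytoskeleton, 61.1 ± 18.9. Akap8l had 79 reads in replicate 1 and 42 in replicate 2 (log2 ratio -1.02, adjusted exact p = 0.0149) and Akap8, a nuclear anchor, 48 and 21 (-1.30, adjusted exact p = 0.0275). On annotated models alone Akap8l had 41 and 30 reads (adjusted exact p = 0.685), and with genomic fragments Akap8 had 49 and 24 (adjusted exact p = 0.0728).

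**Figure D5:**
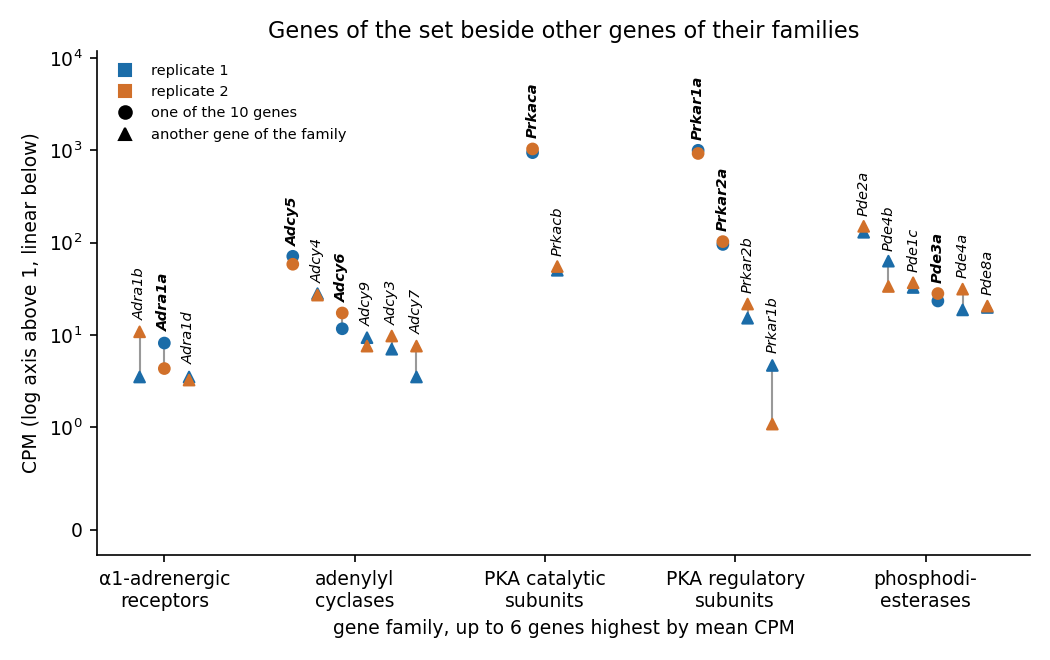
CPM of genes of the set (circles) and of other genes of their families (triangles) in replicate 1 and replicate 2, for 5 families and up to 6 genes in each by mean CPM, on a log axis that is linear below 1. Prkaca and Prkar1a stand far above their relatives, whereas Pde2a, Pde4b and Pde1c stand above Pde3a, and Pde4d is not among the 6 highest phosphodiesterases.

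Of 7 genes of receptor desensitisation 4 were detected and 0 called, with the receptor kinases Grk6 at 63.4 ± 4.24 CPM, Grk2 at 34.2 ± 1.06 and Grk5 at 10.7 ± 1.37. Of 10 other cAMP effectors and transporters 6 were detected and 0 called, led by the cAMP-binding Popeye family: Popdc2 had 508 ± 46.9 CPM, Bves 123 ± 1.24 and Popdc3 35.8 ± 2.81. Of 10 nuclear targets 6 were detected and 0 called, with the CRE-binding factors Crem at 23.03 ± 2.04 CPM, Atf1 at 11.9 ± 6.19 and Creb1 at 8.98 ± 0.487. All 17 cardiac PKA substrates and phosphatases were detected. Pln, phospholamban, the brake on the calcium pump that PKA relieves, had 1611 ± 22.7 CPM from 1369 and 1508 reads, more than any of the 10 genes, and a further 1194 and 1683 reads in genomic fragments. Fxyd1, phospholemman, had 909 ± 67.2 and Mybpc3, cardiac myosin-binding protein C, 609 ± 0.256. Rrad, a small G protein that restrains L-type calcium channels, had 83 reads in replicate 1 and 167 in replicate 2 (log2 ratio 0.90, adjusted exact p = 0.000412). On annotated models Rrad had 66 and 118 reads (adjusted exact p = 0.0682). Of 9 genes of catecholamine synthesis and uptake 5 were detected and 0 called. Among them, Maob, an amine oxidase, was at 19.2 ± 4.21 CPM and Slc22a3, a transporter, at 10.9 ± 10.5.

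Beside these 4 calls, some markers of the tissue and of other cells were called between the libraries. Of the 7 cardiomyocyte markers Actc1 and Myl2 were called higher and Nppa lower in replicate 2. Of 5 lung markers 1 was detected, and their summed level was 138 CPM in replicate 1 and 8.63 in replicate 2, and Scgb1a1, of airway club cells, had 111 and 7 reads. Of the 5 fat markers, which summed to 230 and 311 CPM, only Ucp1, of brown fat, was called, at 53 and 107 reads. Cidea had 87 and 129 reads, and Adipoq, Cidec and Plin1 had slightly lower CPM in replicate 2. The 5 macrophage markers summed to 223 and 156 CPM, with 0 called. Their part in the calls was not tested.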

How the data were processed

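The authors used mm10 and GENCODE M21, per the labels and the text files beside the tables. Per the file headers, TALON assigned each read to a transcript model. Aligner, filters and versions: not given in the sources used here. Deposited values are raw read counts per transcript model, 1 table per library, listing models with at least 1 read. The members and lists were chosen with earlier results of these data known. Symbols were matched to the tables, and unannotated models were matched by intron chain. Gene counts left out spike-ins and genomic models. Form shares took annotated forms and unannotated spliced ones that had 5 reads or more in both libraries. First exons, told apart by their first intron, took all spliced models that are not incomplete. Share tests needed 20 such reads per library. The tests (scipy 1.17.1, Python 3.11.15) were exact, two-sided and adjusted over all genes tested, with a threshold of 0.05, and were tested on simulated data. They and the 95% intervals cover counting error only. Reads of amplified cDNA are not independent molecules, so p-values may be too small and intervals too narrow. TMM totals came from edgeR 4.0.16 in R 4.3.3. Named were all 10 genes, forms with at least 10% of a gene's reads, first exons with at least 5 reads, and per list the 3 highest genes and every called one; some genes of the lists are not reported here. A form or first exon below those limits, and Prkar1b, Prkar2b, Pde3b, Pde1c and the marker genes, were named after their values were seen. One symbol of the lists, Icer, is an isoform name of Crem and is not in the annotation. Mtcl1, in the list of A-kinase anchors, is not a known anchor.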

Additional observations from a re-analysis of the deposited data

Results flagged for a closer look

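Reads outside the counted classes were above the limit that a count of 0 allows, in both libraries, for several of the genes. Genomic fragments numbered 16 and 7 for Adcy6, 10 and 11 for Prkar1a, 7 and 13 for Prkar2a and 4 and 5 for Pde4d in replicates 1 and 2. All those of Adcy6 and Prkar1a overlapped the last exon of an annotated transcript of the gene. So did 6 and 12 of those of Prkar2a and 2 and 0 of those of Pde4d. Models on the opposite strand, within the span of the gene, held 36 and 34 reads at Pde4d, 10 and 14 at Prkar1a, 7 and 11 at Prkaca, 8 and 12 at Adcy5, 11 and 4 at Adra1a and 9 and 5 at Pde3a. With 2 libraries, no library could be tested for standing apart from the others.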

How the results depend on the processing

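The summed level of the 10 genes was 3517 CPM, and it was 3457 with genomic fragments counted and 3993 on annotated models alone, where the totals are smaller. Of the 10 single levels 0 moved by more than 1 SD under TMM totals, 4 did with genomic fragments and 8 on annotated models. The log2 ratio of Adcy6, replicate 2 over replicate 1, turned from 0.57 to -0.29 with genomic fragments, and the cause was not tested. The genes called between the libraries numbered 162, and 120 to 167 under the alternatives, with 0 of the 10 genes among them each time. The leading form differed in 1 gene, but in 19 when every spliced form counted without a minimum, and the leading first exon in 6 genes, but in 2 on annotated models alone, where fewer genes were tested. The leading first exon of Prkar1a had 98.3% of reads, 81.2% with incomplete models added and 99.9% on annotated models. Inclusion of Gnas exon 3 was 78.1%, and 55.0% over either start of exon 4, an alternative chosen after seeing the data. With 2 libraries, leaving out 1 leaves the value of the other, as given above. Over the alternatives the adjusted exact p was 0.0314 to 1 for Chrm2, 0.00563 to 0.0728 for Akap8, 0.0152 to 0.685 for Akap8l and 0.000418 to 0.0682 for Rrad. Genes with few reads, above all Adra1a and Pde4d, are limited by depth. No paired analysis was possible because there was 1 group.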
